A study of Homo sapiens with 12 samples.

Results

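LNCaP-ER cells are an enzalutamide-resistant derivative of LNCaP, a luminal line established from a prostate cancer metastasis, and the response of their transcriptome to doxycycline (DOX) was measured in LNCaP-ER/tet-MUC1shRNA cells, in which DOX switches on an shRNA against MUC1. The libraries were chosen by their labels, 3 labelled DOX negative and 3 labelled DOX positive, and make up 6 of the 12 libraries of the series. Control cells received 0.1% DMSO as vehicle, and the other cells received 500 ng/mL DOX, for 7 days. All 6 cultures were LNCaP selected in rising enzalutamide and carried the same single shRNA in the pLKO-tet-puro vector, with transduced cells selected in puromycin. No DOX-treated cells without the MUC1 shRNA were analysed here, so an effect of DOX itself and an effect of silencing MUC1 cannot be told apart, and whether a dose of enzalutamide was kept on during the 7 days is not given in the sources used here. The labels call the cultures triplicates without saying how separate they were, so p-values measure only the spread between these samples, which may be technical. Reads were counted on 28008 genes, and 14683 of them passed edgeR's filter on low counts and were tested.

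MUC1 encodes a heterodimeric mucin, whose transmembrane subunit MUC1-C signals from the cell surface and in the nucleus. Enzalutamide is a drug against androgen signaling, and in luminal prostate cells androgens drive secretory genes such as KLK3, which encodes prostate-specific antigen. DOX, besides inducing the shRNA, is a tetracycline and can inhibit the mitochondrial ribosome, and impaired mitochondrial translation is one of several inputs to the integrated stress response, in which the transcription factor ATF4 raises genes for amino acid supply. The comparison asks which of these programs differed between the groups.

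MUC1 itself had 26, 10 and 13 read counts in vehicle 1, 2 and 3, against 3, 42 and 8 with the labels DOX 1, 2 and 3. DOX 1 and DOX 3 lay below every vehicle library, and DOX 2 lay above them all. The log2 fold change of MUC1 was 0.12 ± 0.93 SE (standard error), with an adjusted p = 0.935. Unless another tool is named, every adjusted p here is from the quasi-likelihood test of edgeR, Benjamini-Hochberg adjusted over all genes tested. Without DOX 2 the fold change of MUC1 was -1.83 (adjusted p = 0.0617, over a range of 0.0617 to 0.972 across the alternatives), and without vehicle 2 it was -0.09. At these counts a change in MUC1 was not resolved, and libraries are therefore named by their labels throughout. DOX 2 also carried counts on genes that no other library detected. Of 5532 genes at 0 in the other 5 libraries, 3004 had a count in DOX 2, with at most 50 counts each and a summed level of 640 CPM (read counts scaled to a constant library size) in all, while 33 to 135 such genes had a count when any other library was set against the remaining 5. Of 56 markers of basal, neuroendocrine, fibroblast, leukocyte and endothelial cells, 56 had a count in DOX 2, and 18 to 34 were at 0 in each of the other libraries. The 26 of these markers that had at most 2 counts in every other library held a median of 11 and at most 30 counts in DOX 2, beside the 42 counts of MUC1. The same pattern held for olfactory receptor genes, of which 273 of 399 had a count in DOX 2 and 27 to 66 in the other libraries. The part of this background in the MUC1 count was not tested. Of 133 called genes named below, 132 kept their call and direction without DOX 2, the exception being MYC. That share was partly fixed in advance, because the largest changes were chosen among genes also called without DOX 2. It also covers only the genes described, and some genes that lost their call without DOX 2 are left out. REL and CFLAR, called lower with all libraries, lost their call without DOX 2 (adjusted p of 0.0582 and 0.0802) and are not described below. The 1 neuroendocrine gene called higher with all libraries also lost its call and is not named. Over all genes tested, 4006 were called and 3727 kept their call and direction. Each fold change is given with and without DOX 2.

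**Figure D1:**
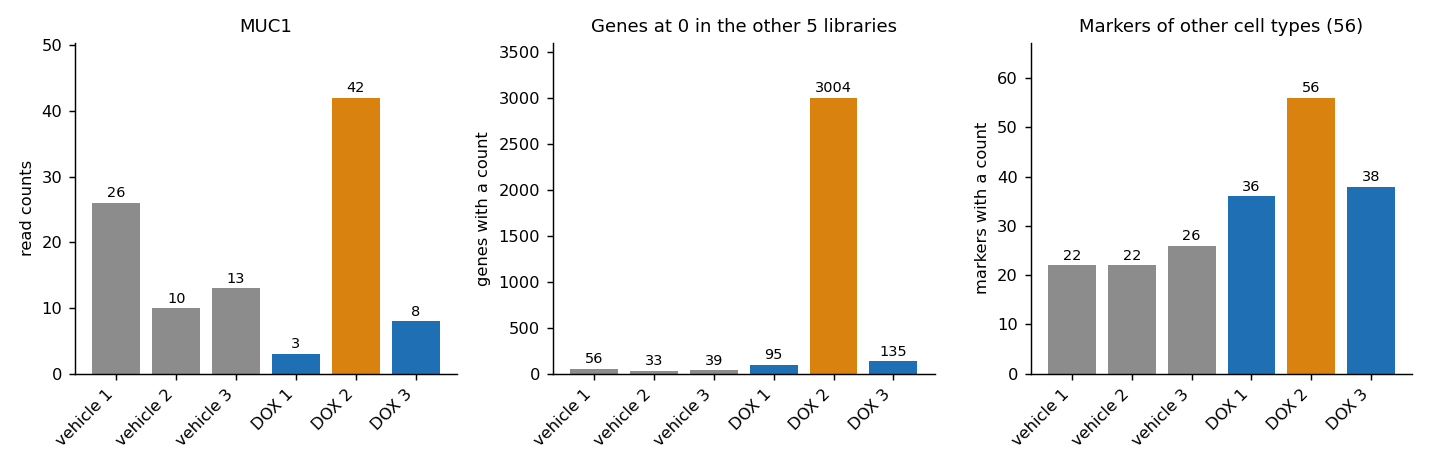
Bars give, for each library, the read counts of MUC1 (left), the number of genes with a count among those at 0 in the other 5 libraries (middle) and the number of 56 markers of other cell types with a count (right), with vehicle in grey, DOX 1 and DOX 3 in blue and DOX 2 in orange. DOX 2 is the highest library in each panel, at 42 MUC1 counts, 3004 genes and 56 markers.

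Luminal markers were expressed in both groups. All 12, among them KLK3, TMPRSS2 and HOXB13, were counted in every library, with a summed level of 7850 to 8310 CPM in the vehicle libraries and 7590 to 9410 CPM with DOX, and 4 of them rose and 2 fell. Total counts ranged from 28045894 to 45807989 per library. Vehicle 2 and vehicle 3 were the closest pair, with a chi-square of their counts, per degree of freedom, of 5.51. It was 48.6 and 48.4 for vehicle 1 against them, and 51.5, 25 and 61.7 for DOX 1 against DOX 2, DOX 1 against DOX 3 and DOX 2 against DOX 3. In bulk RNA, fewer cells of a state and less RNA per cell cannot be told apart.

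With all 6 libraries, 4006 of the 14683 genes tested (27.3%) passed an adjusted p of 0.05, 1875 higher (12.8%) and 2131 lower (14.5%) with DOX. Without DOX 2, 5243 of 14848 genes (35.3%) passed, 2679 higher (18.0%) and 2564 lower (17.3%), and 3727 genes (25.4%) were called in the same direction in both fits. Fewer genes passed when vehicle 2, vehicle 3 or DOX 3 was left out, at 2200, 2002 and 2067, and fewer members were called in most of the lists below. The groups did not overlap for 3120 higher (21.2%) and 3382 lower genes (23.0%). The share of called genes that were higher depended on scaling, at 46.8% with TMM and 59.6% when counts were scaled by library size alone. It was 95.2% on the TPM as deposited, where 4 noncoding RNAs held 52.5% to 75.2% of each library and the log2(TPM + 1) of the median gene was 0.45 higher with DOX. Counts of list members with all libraries are to be read against the 12.8% and 14.5% of all genes. Those without DOX 2 are to be read against its 18.0% higher and 17.3% lower (35.3% in all). Those without another library belong to fits that called fewer genes, also 3582 of 15081 without vehicle 1 and 2909 of 15101 without DOX 1. Each list is described by its counts, its median log2 fold change, beside the median of -0.02 over all genes tested, and, in brackets, the number of members called without a named library where leaving it out moved that number by more than 1.5 times. Levels are TMM-scaled CPM, in the order vehicle 1, 2 and 3 and DOX 1, 2 and 3, and depend on transcript length, so they are compared between libraries and not between genes.

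**Figure D2:**
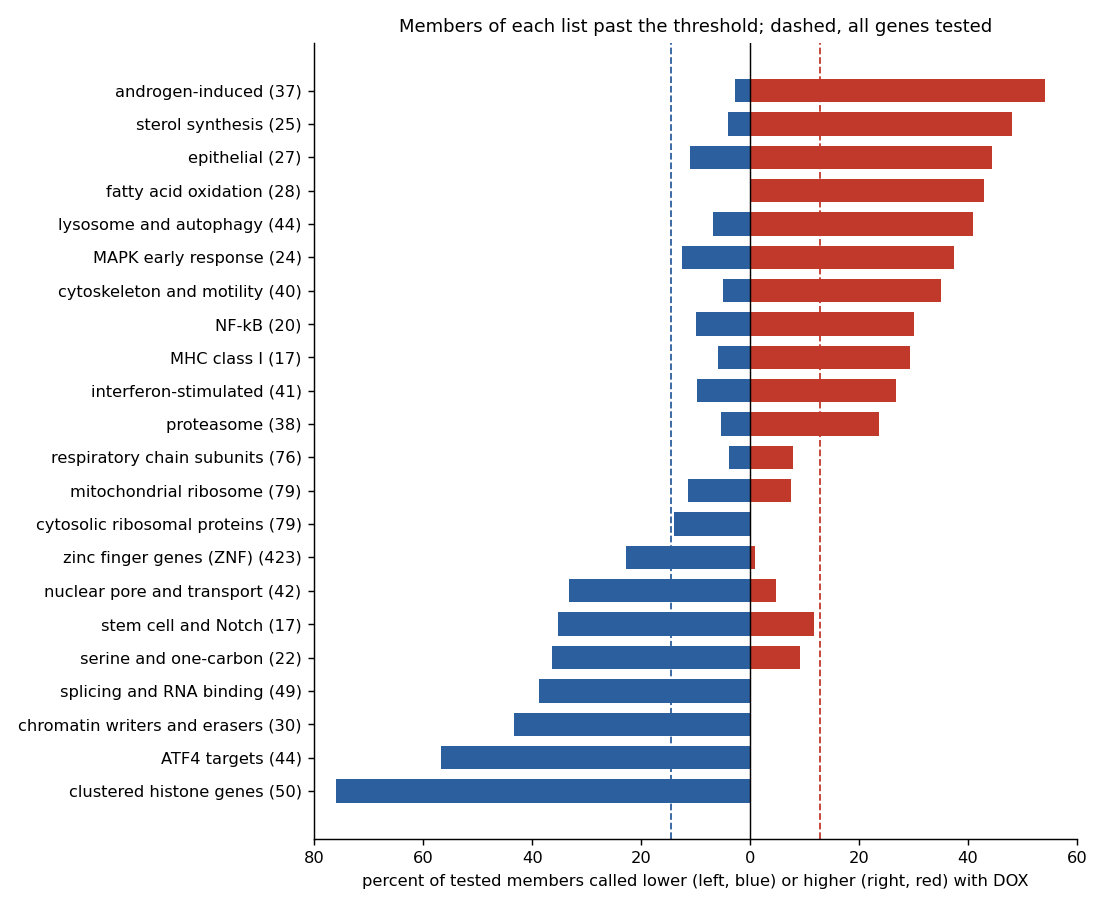
Bars give the percentage of the tested members of each gene list that were called lower (blue, left) or higher (red, right) with DOX at an adjusted p of 0.05, with the number of tested members in brackets. Dashed lines mark the 14.5% and 12.8% of all genes tested; androgen-induced genes reach 54.1% higher, ATF4 targets 56.8% lower and clustered histone genes 76% lower.

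Among genes with a mean level of 5 CPM or more, called with and without DOX 2 and with no overlap of the groups, UGT2B11, a UDP-glucuronosyltransferase, had the largest increase. It stood at 1.04, 0.544 and 0.249 CPM in the vehicle libraries and 11.8, 9.46 and 14.6 CPM with DOX (log2 fold change 4.24 ± 0.41 SE, adjusted p = 0.000509, 4.41 without DOX 2). AGR2, a protein disulfide isomerase of secretory cells, stood at 0.904, 1.5 and 0.959 CPM and 9.43, 7.21 and 22.1 CPM (log2 fold change 3.54 ± 0.45 SE, adjusted p = 0.00134, 3.86 without DOX 2). For both genes, DOX 2 stood above every vehicle library with DOX 1 and DOX 3. IGFBP3, which binds insulin-like growth factors outside the cell, rose by 3.52 ± 0.36 (3.65 without DOX 2), and TTN, the giant sarcomere protein gene, by 3.63 ± 0.39 (3.74 without DOX 2) on the log2 scale. CCDC141 and SH3D21 rose by 2.87 ± 0.45 (3.23 without DOX 2) and 2.78 ± 0.15 (2.90 without DOX 2). For FAXDC2, a gene of the fatty acid hydroxylase superfamily, the DOX libraries differed in size, at 28.1, 6.67 and 43.1 CPM against 1.25, 3.2 and 2.95 CPM with vehicle (log2 fold change 3.42 ± 0.64 SE, adjusted p = 0.00603, 3.91 without DOX 2).

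Among genes chosen the same way, the largest decrease was in SLC16A14, an orphan member of the monocarboxylate transporter family, at 18, 7.76 and 10.1 CPM with vehicle and 1.39, 0.64 and 1.34 CPM with DOX (log2 fold change -3.39 ± 0.40 SE, adjusted p = 0.000973, -3.10 without DOX 2). ACKR3, the atypical chemokine receptor that scavenges CXCL12, stood at 186, 147 and 163 CPM and 12.4, 27.4 and 12.4 CPM (log2 fold change -3.26 ± 0.30 SE, adjusted p = 0.00046, -3.70 without DOX 2). TOX3, a high-mobility-group box protein, stood at 87.4, 71.1 and 80.6 CPM and 9.31, 21.4 and 7.09 CPM (log2 fold change -2.67 ± 0.36 SE, adjusted p = 0.00154, -3.25 without DOX 2). In both ACKR3 and TOX3, DOX 2 lay below every vehicle library but above DOX 1 and DOX 3. FAM241A fell (log2 fold change -2.51 ± 0.18, -2.33 without DOX 2), CALCRL, the receptor subunit for CGRP and adrenomedullin, (-2.44 ± 0.21, -2.37 without DOX 2), and GSTA1, a glutathione transferase, (-2.35 ± 0.31, -2.35 without DOX 2). BEST1, a chloride channel, fell, with a log2 fold change of -2.39 ± 0.66 (-3.74 without DOX 2) and so did PLD1, a phospholipase, at -2.41 ± 0.60 (-2.41 without DOX 2), but BEST1 lost its call without vehicle 2, vehicle 3 or DOX 3 (adjusted p of 0.0715, 0.0909 and 0.108) and PLD1 without DOX 1 or DOX 3 (0.0565 and 0.071), over ranges of 2.75e-06 to 0.183 and 0.000173 to 0.384 across the alternatives.

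**Figure D3:**
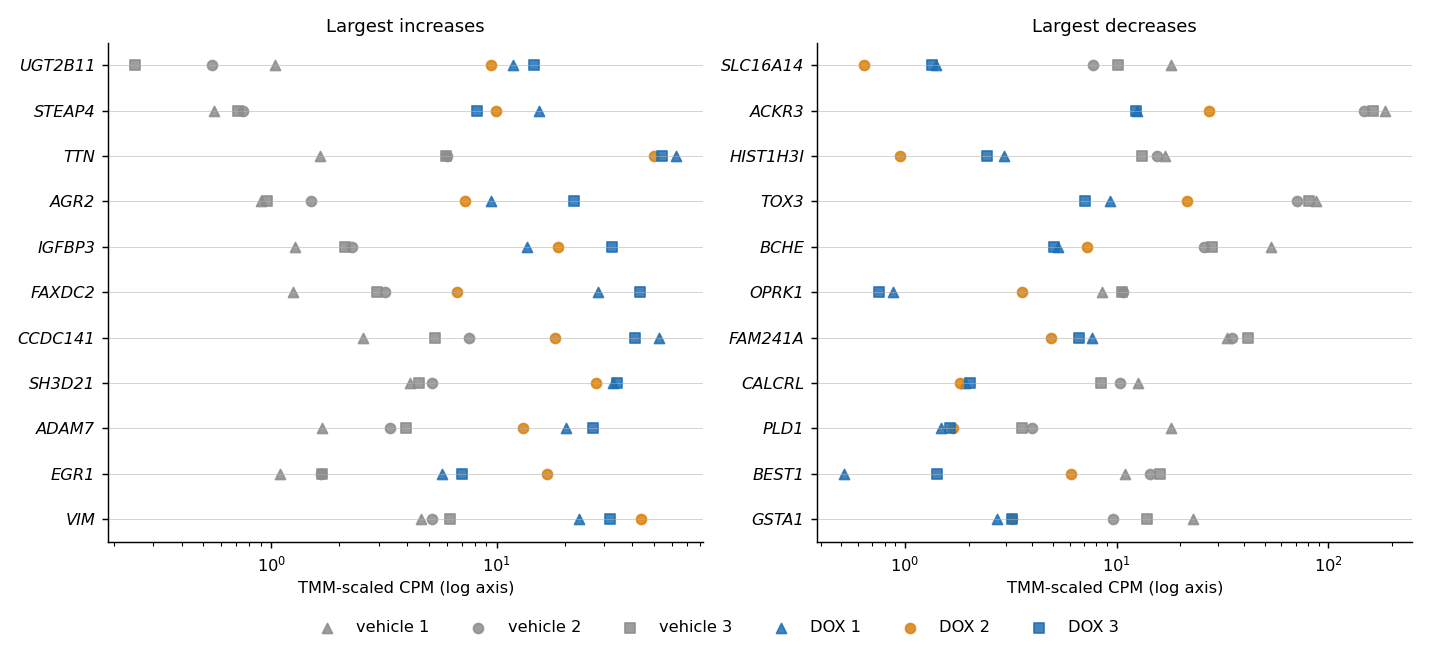
Each point is the TMM-scaled CPM of 1 library on a log axis, for 11 of the 12 genes with the largest increase (left) and 11 of the 12 with the largest decrease (right) among genes called with and without DOX 2 with a mean level of 5 CPM or more and groups that do not overlap. Vehicle libraries are grey, DOX 1 and DOX 3 blue and DOX 2 orange; DOX 2 lies between the vehicle libraries and DOX 1 and DOX 3 for genes such as FAXDC2, CCDC141, ACKR3, TOX3, OPRK1 and BEST1.

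Androgen-induced genes were mostly higher with DOX. Of 37 tested members of 38, 20 rose and 1 fell (median 0.69), and without DOX 2, 22 rose and 3 fell (median 0.87). STEAP4, a metalloreductase, stood at 0.558, 0.748 and 0.711 CPM in the vehicle libraries and 15.5, 9.9 and 8.15 CPM with DOX (log2 fold change 4.06 ± 0.31 SE, adjusted p = 0.000217, 4.17 without DOX 2). The kallikrein KLK3 stood at 122, 154 and 149 CPM and 311, 374 and 275 CPM (log2 fold change 1.18 ± 0.14 SE, adjusted p = 0.000997, 1.08 without DOX 2). Its neighbour KLK2 stood at 72.5, 92.7 and 88.3 CPM and 272, 166 and 237 CPM (log2 fold change 1.41 ± 0.18 SE, adjusted p = 0.00123, 1.62 without DOX 2). DOX 2 held the highest KLK3 of all libraries and the lowest KLK2 of the DOX libraries. TMPRSS2, a serine protease gene, rose evenly, from 533, 589 and 561 CPM to 1006, 989 and 1019 CPM (log2 fold change 0.84 ± 0.09 SE, adjusted p = 0.000777, 0.89 without DOX 2). ADAM7, a gene of the epididymis and prostate, rose by 2.76 ± 0.35 (3.03 without DOX 2) on the log2 scale.

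Within the same list, other members split the DOX libraries. NDRG1, also induced by hypoxia and stress, stood at 71.6, 122 and 127 CPM with vehicle and at 714, 211 and 649 CPM in DOX 1, 2 and 3 (log2 fold change 2.30 ± 0.42 SE, adjusted p = 0.00586, 2.71 without DOX 2). FKBP5, a co-chaperone of steroid receptors, stood at 175, 218 and 204 CPM with vehicle and 665, 175 and 443 CPM with DOX, so that DOX 2 was level with the vehicle libraries. FKBP5 was not called with all libraries (log2 fold change 1.10 ± 0.38 SE, adjusted p = 0.0588) and was called without DOX 2 (1.51, adjusted p = 0.000542, with 9.93e-09 to 0.369 across the alternatives). The single member that fell, TSC22D3, a glucocorticoid-induced leucine zipper gene, stood at 58.6, 206 and 207 CPM and 35.4, 75.6 and 31.8 CPM (log2 fold change -1.73 ± 0.50 SE, adjusted p = 0.0356, -2.20 without DOX 2). Vehicle 1 overlapped the DOX libraries there, and the call was lost without vehicle 2, vehicle 3, DOX 1 or DOX 3 (adjusted p of 0.0866 to 0.13, within 0.00717 to 0.306 across the alternatives). NR3C1, which encodes the glucocorticoid receptor, had 26, 92 and 100 counts in vehicle 1, 2 and 3 and 1, 51 and 17 counts with DOX, and was not called (log2 fold change -1.82 ± 0.99 SE, adjusted p = 0.203), but was called lower without DOX 2 (-3.45, adjusted p = 0.0206, with 0.0168 to 0.556 across the alternatives).

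Of 22 tested genes for the androgen receptor and its cofactors, 5 fell, 1 rose and 16 were not called (median -0.09). The member that rose encodes a coactivator. Without DOX 2, 6 fell and 3 rose, and 3 members were called without vehicle 3 and 3 without DOX 3. FOXA1, a pioneer factor of luminal chromatin, fell from 887, 1175 and 1195 CPM to 713, 825 and 626 CPM (log2 fold change -0.59 ± 0.15 SE, adjusted p = 0.0196, -0.66 without DOX 2), and was not called without vehicle 2, vehicle 3, DOX 1 or DOX 3 (adjusted p of 0.0552 to 0.0854, within 0.000794 to 0.937). MED1, a subunit of the Mediator complex, fell (log2 fold change -0.75 ± 0.13, -0.57 without DOX 2), and so did CREBBP, a histone acetyltransferase (-0.45 ± 0.08, -0.43 without DOX 2, and 0.1 on the log2(TPM + 1) scale).

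UGT2B genes for androgen conjugation and genes known to be repressed by androgen are counted as one list. Of 9 tested, 2 rose and 4 fell, and the same counts were found without DOX 2. The 2 that rose were the conjugation genes UGT2B11 and UGT2B28. The 4 that fell were the repressed genes ACKR3 (described above), BCHE and OPRK1 and a further UGT2B gene, not named here. The UGT2B genes thus did not move one way. UGT2B28 joined UGT2B11 in rising, from 9, 2 and 2 counts with vehicle to 211, 91 and 343 counts with DOX (log2 fold change 5.36 ± 0.55 SE, adjusted p = 0.000598, 5.68 without DOX 2); the UGT2B genes are near-identical paralogs, and reads shared between them make both values uncertain. BCHE, which encodes butyrylcholinesterase, fell from 53.5, 25.9 and 28.2 CPM to 5.31, 7.28 and 5.07 CPM (log2 fold change -2.61 ± 0.29 SE, adjusted p = 0.00081, -2.76 without DOX 2). OPRK1, the kappa opioid receptor, fell from 8.48, 10.7 and 10.6 CPM to 0.879, 3.57 and 0.755 CPM (log2 fold change -2.55 ± 0.52 SE, adjusted p = 0.00858, -3.57 without DOX 2). Among 18 genes of steroid synthesis and conversion, 4 rose and 1 fell (3 called without vehicle 1, 2 without vehicle 2, 2 without vehicle 3, 2 without DOX 1 and 1 without DOX 3). HSD3B1, which converts adrenal precursors toward potent androgens, had 3, 0 and 5 counts with vehicle and 47, 23 and 44 counts with DOX (log2 fold change 3.58 ± 0.81 SE, adjusted p = 0.0126, 3.78 without DOX 2; 0.0532 without vehicle 1, within 0.00246 to 0.0532). At its vehicle counts, HSD3B1 could pass the filter on low counts only through the DOX libraries. Its 23 counts in DOX 2 were within the background of up to 30 counts seen there for markers of other cell types, and the part of that background was not tested. CYP11A1, the side-chain cleavage enzyme, fell from 2.07, 6.09 and 7.82 CPM to 1.24, 1.79 and 0.668 CPM (log2 fold change -2.12 ± 0.53 SE, adjusted p = 0.0179, -2.46 without DOX 2), and lost its call without vehicle 2, vehicle 3, DOX 1 or DOX 3 (adjusted p of 0.0507 to 0.0793, within 0.000872 to 0.205).

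ATF4 targets were lower with DOX, and none was called higher. Of 44 tested of 45, 25 fell (56.8%, median -0.89), and 33 fell without DOX 2 (median -1.09). The number of members called depended on the libraries (12 called without vehicle 2, 11 without vehicle 3, 14 without DOX 1 and 10 without DOX 3). The size of the decrease differed between the DOX libraries, since the median difference from the vehicle libraries was -0.43 in DOX 2 and -1.11 in DOX 1 and DOX 3. Vehicle 1, at -0.43 relative to the vehicle mean, was level with DOX 2, while vehicle 2 and vehicle 3 were at 0.22 and 0.23.

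ATF4 binds, with C/EBP partners, to composite elements whose letters can be written TGATGNAA, and promoter windows (250 bases before to 50 bases after the start, RefSeq, GRCh38.p14) were searched for them on both strands. They are in 1003 of 27305 windows (3.67%), in 3 of the 21 list members called lower that have a window and in 5 of the 16 that were tested and not called. The stretches before the start of ASNS and AARS are shown because both members were called lower and hold the letters, in capitals, upstream of their start; AARS holds them on the reverse strand. The match describes these letters only.
ASNS: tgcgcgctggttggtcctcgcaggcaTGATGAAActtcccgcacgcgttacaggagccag
AARS: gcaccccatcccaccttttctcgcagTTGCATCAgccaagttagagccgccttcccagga
The ASNS stretch lies at chr7:97872443-97872502 and the AARS stretch at chr16:70289660-70289719, both on the minus strand and printed 5′ to 3′ in the direction of the gene. ASNS and AARS, with NFKBIA below, are named for these letters and not by the rule that chose the other genes, and so were chosen after their values were seen.

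ASNS, asparagine synthetase, stood at 15.1, 19.8 and 20.7 CPM with vehicle and 6.67, 12.3 and 7.33 CPM with DOX (log2 fold change -1.08 ± 0.24 SE, adjusted p = 0.0121, -1.37 without DOX 2). AARS, alanyl-tRNA synthetase, stood at 479, 628 and 637 CPM and 278, 448 and 295 CPM (log2 fold change -0.77 ± 0.19 SE, adjusted p = 0.0184, -0.99 without DOX 2). In both, DOX 2 lay between the vehicle libraries and DOX 1 and DOX 3. ASNS lost its call without vehicle 3 or DOX 3 (adjusted p of 0.0502 and 0.0555, within 0.000236 to 0.405), and AARS without vehicle 2, vehicle 3, DOX 1 or DOX 3 (0.0569 to 0.0798, within 0.000285 to 0.578). WARS, tryptophanyl-tRNA synthetase, was the member least divided, at 181, 217 and 216 CPM with vehicle and 67.1, 69.5 and 69.6 CPM with DOX (log2 fold change -1.57 ± 0.10 SE, adjusted p = 0.000114, -1.55 without DOX 2). SLC7A11, the cystine-glutamate exchanger that feeds glutathione synthesis, fell from 462, 674 and 718 CPM to 89.2, 267 and 122 CPM (log2 fold change -1.95 ± 0.37 SE, adjusted p = 0.00613, -2.51 without DOX 2). JDP2, a bZIP repressor, fell from 15.6, 33.8 and 34.7 CPM to 4.46, 9.13 and 5.61 CPM (log2 fold change -2.13 ± 0.35 SE, adjusted p = 0.00347, -2.44 without DOX 2). For WARS, SLC7A11 and JDP2 the groups did not overlap.

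The transcript of ATF4, itself controlled largely by translation, stood at 432, 654 and 653 CPM with vehicle and 189.9, 399 and 207 CPM with DOX (log2 fold change -1.13 ± 0.28 SE, adjusted p = 0.0186, -1.51 without DOX 2). Its lowest vehicle value, in vehicle 1, was close to DOX 2, and the call was lost without vehicle 2, vehicle 3, DOX 1 or DOX 3 (adjusted p of 0.0548 to 0.0797, within 0.000735 to 0.393). DDIT3, which encodes the stress factor CHOP, stood at 13.1, 51.1 and 53.9 CPM and 6.22, 24.6 and 7.68 CPM and was not called with all libraries (log2 fold change -1.63 ± 0.63 SE, adjusted p = 0.0909, -2.46 without DOX 2). It was called without vehicle 1 (adjusted p = 0.0294) or without DOX 2 (0.0196), over 0.0196 to 0.403 across the alternatives. Of 33 endoplasmic reticulum chaperone and unfolded protein response genes, 2 rose and 3 fell (1 called without vehicle 2, 1 without vehicle 3, 3 without DOX 1 and 1 without DOX 3), a smaller share than over all genes, with XBP1, the transcription factor of the IRE1 branch, at 159, 218 and 211 CPM and 121, 129 and 119.5 CPM (log2 fold change -0.67 ± 0.13 SE, adjusted p = 0.00603, -0.67 without DOX 2). Of 26 heat shock genes, 4 rose and 3 fell (4 called without vehicle 2, 4 without vehicle 3, 14 without DOX 2 and 4 without DOX 3), with BAG3 at 0.86 ± 0.16 (1.04 without DOX 2), HSPA1B at 0.72 ± 0.12 (0.74 without DOX 2) and the small heat shock protein HSPB1 at -1.0 ± 0.15 (-1.09 without DOX 2) on the log2 scale. Serine and one-carbon genes, several of which ATF4 also controls, numbered 22, of which 8 fell and 2 rose (median -0.27; 6 called without vehicle 2, 5 without vehicle 3 and 6 without DOX 3). SFXN1, the mitochondrial serine carrier, fell (log2 fold change -0.60 ± 0.11, -0.45 without DOX 2).

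**Figure D4:**
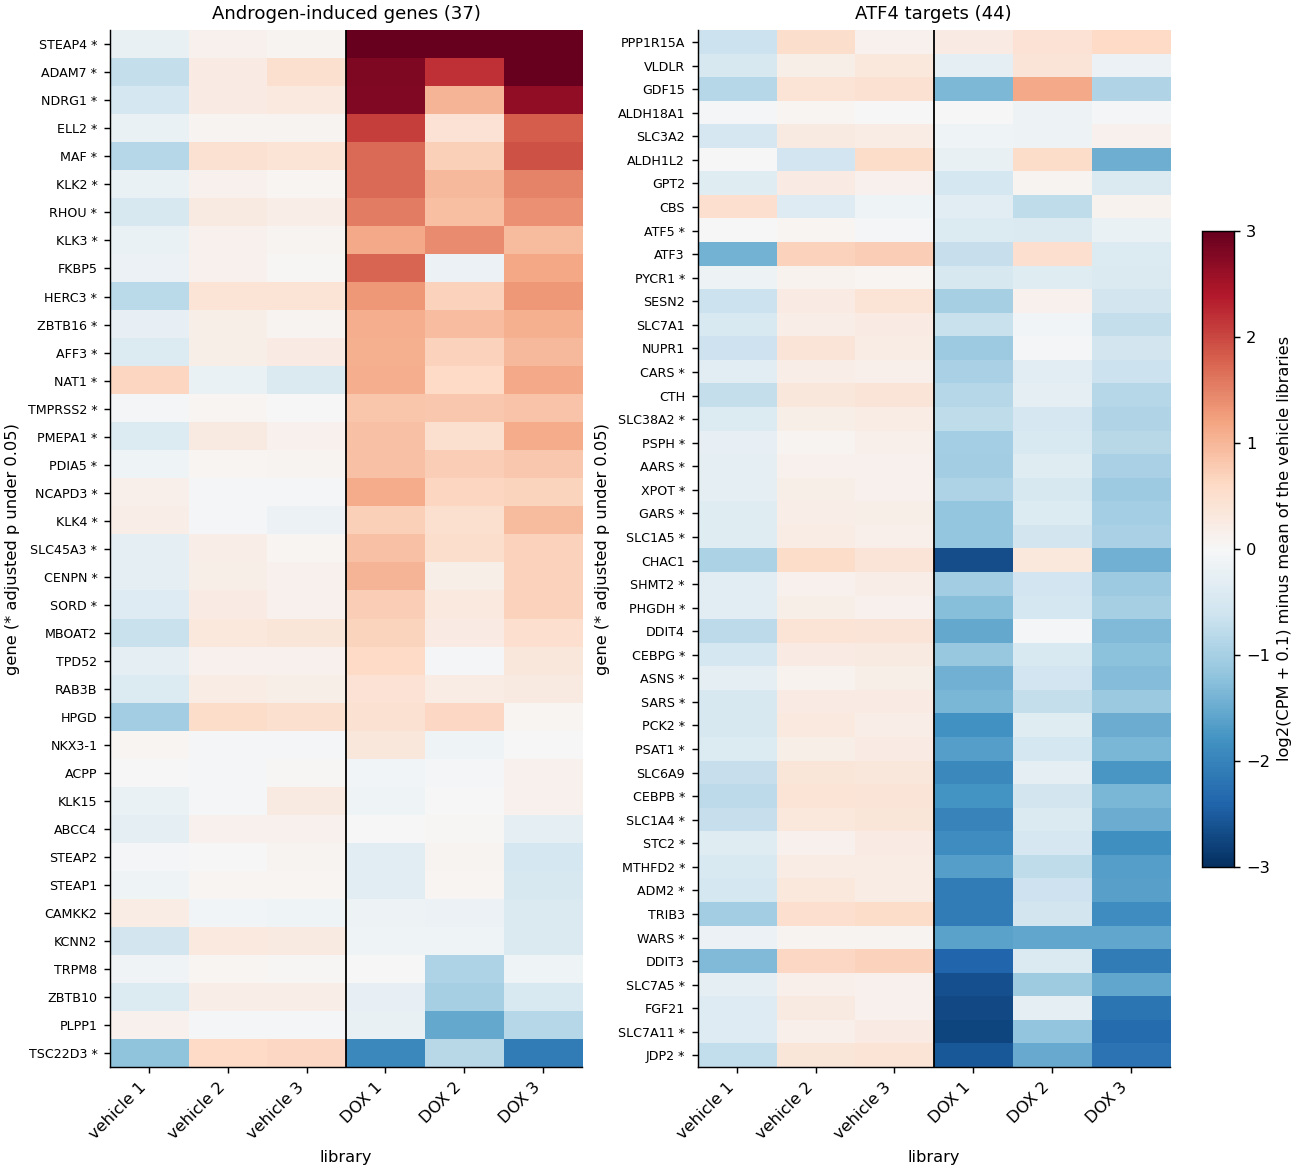
Colours give log2(CPM + 0.1) of each tested member of the androgen-induced list (left, 37 genes) and the ATF4 target list (right, 44 genes) in each of the 6 libraries, minus the mean of the vehicle libraries, with red higher, blue lower and the scale ending at 3 and -3. An asterisk marks an adjusted p under 0.05; DOX 2 is paler than DOX 1 and DOX 3 in most rows, and vehicle 1 is the lowest vehicle library in most of them.

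Lipid genes divided by pathway. Of 25 sterol synthesis genes, 12 rose and 1 fell (median 0.38; 12 and 3 without DOX 2; 6 called without vehicle 2, 4 without vehicle 3, 6 without DOX 1 and 7 without DOX 3). TM7SF2, a sterol reductase, rose from 123, 113 and 108 CPM to 233, 262 and 271 CPM (log2 fold change 1.15 ± 0.10 SE, adjusted p = 0.00036, 1.17 without DOX 2), and SC5D, a sterol desaturase, by 0.62 ± 0.14 (0.50 without DOX 2) on the log2 scale. HSD17B7 was the member that fell (log2 fold change -0.89 ± 0.15, -0.99 without DOX 2). Of their regulators, SREBF1 was not called (log2 fold change 0.10 ± 0.11 SE, adjusted p = 0.542, 0.12 without DOX 2). SREBF2 was also not called with all libraries (log2 fold change -0.34 ± 0.12 SE, adjusted p = 0.0603, -0.42 without DOX 2). It was called without vehicle 1 (adjusted p = 0.0429) or DOX 2 (0.0115), over 0.0115 to 0.546 across the alternatives, and was 0.21 on the log2(TPM + 1) scale. In the sterol promoters, the letters TCACNCCAC, a form of the sterol element searched on both strands, were in 1 of 19 members with a window and in none of the 9 called higher, beside 1.15% of all windows.

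Fatty acid oxidation was the more uniform lipid list, with 12 of 28 tested members higher and 0 lower (median 0.32; 7 called without vehicle 3 and 7 without DOX 3). Its median differed from the vehicle libraries by 0.36 in DOX 2 and 0.34 in DOX 1 and DOX 3. CPT1A, which admits long-chain fatty acids to mitochondria, stood at 167, 191 and 189 CPM with vehicle and 332, 295 and 342 CPM with DOX (log2 fold change 0.83 ± 0.10 SE, adjusted p = 0.00111, 0.92 without DOX 2). CPT2, its inner membrane partner, stood at 82, 66.1 and 64.9 CPM and 133, 116 and 133 CPM (log2 fold change 0.84 ± 0.12 SE, adjusted p = 0.00178, 0.94 without DOX 2). ACADVL, the very long chain acyl-CoA dehydrogenase, stood at 218, 206 and 209 CPM and 383, 398 and 416 CPM (log2 fold change 0.92 ± 0.09 SE, adjusted p = 0.000462, 0.96 without DOX 2). The DOX libraries lay above the vehicle libraries for all 3. Fatty acid synthesis and modification genes did not move one way, since 3 of 22 rose and 3 fell (13 called without DOX 2 and 3 without DOX 3). ELOVL1, which elongates saturated chains, rose by 0.95 ± 0.17 (1.17 without DOX 2), while FADS1, the delta-5 desaturase, fell from 210.0, 229.8 and 225 CPM to 99.3, 108 and 69.1 CPM (log2 fold change -1.27 ± 0.16 SE, adjusted p = 0.00116, -1.36 without DOX 2). MLXIPL, the carbohydrate-response factor ChREBP, also fell (log2 fold change -1.65 ± 0.27, -1.94 without DOX 2). In the pyruvate dehydrogenase and citrate cycle list, 5 of 34 rose and 2 fell (2 called without vehicle 2, 2 without vehicle 3, 4 without DOX 1, 12 without DOX 2 and 3 without DOX 3), with OGDH, a subunit of 2-oxoglutarate dehydrogenase, at 0.71 ± 0.08 (0.72 without DOX 2) and PDK2, a pyruvate dehydrogenase kinase, at -1.22 ± 0.23 (-1.46 without DOX 2).

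Genes of epithelial junctions and simple keratins were higher. Of 27 tested, 12 rose and 3 fell (median 0.44), with a median difference of 0.15 in DOX 2 and 0.45 in DOX 1 and DOX 3. The number called depended on the libraries (8 called without vehicle 2, 6 without vehicle 3 and 6 without DOX 3). CLDN4, a tight junction claudin, stood at 100.1, 105 and 92.7 CPM with vehicle and 215, 258 and 239 CPM with DOX (log2 fold change 1.26 ± 0.10 SE, adjusted p = 0.000278, 1.23 without DOX 2). The luminal keratin gene KRT8 stood at 139, 155 and 144 CPM and 328, 246 and 364 CPM (log2 fold change 1.10 ± 0.14 SE, adjusted p = 0.00134, 1.28 without DOX 2). RAB25, an epithelial recycling GTPase, rose by 0.60 ± 0.09 (0.65 without DOX 2) on the log2 scale. Members of the same list fell. The desmosomal cadherin gene DSG2 fell from 469.6, 549.7 and 548 CPM to 309, 235 and 278 CPM (log2 fold change -0.93 ± 0.12 SE, adjusted p = 0.00153, -0.80 without DOX 2). ESRP1, the epithelial splicing regulator, fell from 181, 261 and 278 CPM to 113, 181 and 99.3 CPM (log2 fold change -0.87 ± 0.23 SE, adjusted p = 0.0242, -1.14 without DOX 2), with the call lost without vehicle 2, vehicle 3, DOX 1 or DOX 3 (adjusted p of 0.0755 to 0.092, within 0.000616 to 0.485).

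Mesenchymal genes did not follow a single direction. Of 13 tested of 22, 4 rose and 2 fell (3 called without vehicle 2, 3 without vehicle 3 and 2 without DOX 3), and the median, 0.65, was -0.01 relative to all genes on the log2(TPM + 1) scale. VIM, the intermediate filament vimentin, stood at 4.63, 5.14 and 6.18 CPM with vehicle and 23.2, 43.8 and 31.7 CPM with DOX (log2 fold change 2.63 ± 0.24 SE, adjusted p = 0.000445, 2.41 without DOX 2). FN1, fibronectin, fell from 212, 209 and 213 CPM to 75.9, 66.2 and 87.8 CPM (log2 fold change -1.46 ± 0.11 SE, adjusted p = 0.000217, -1.33 without DOX 2). Both were apart between the groups in every library. VIM is also 1 of 18 markers of basal-like prostate cancer lines, of which 4 passed the filter and 3 were called higher. Beside VIM these were ANXA1, annexin A1, with 1, 4 and 5 counts in the vehicle libraries and 88, 59 and 282 with DOX (log2 fold change 5.01 ± 0.69 SE, adjusted p = 0.00169, 5.35 without DOX 2), and LAMB3, a laminin-332 chain (log2 fold change 2.52 ± 0.53 SE, adjusted p = 0.00919, 2.47 without DOX 2). At its vehicle counts, ANXA1 could pass the filter on low counts only through the DOX libraries. The 3 of 4 was therefore partly fixed in advance and cannot be set beside the 12.8% of all genes called higher. The summed level of the 18 markers was 5.65 to 8.61 CPM with vehicle and 29.7, 62.7 and 43.8 CPM in DOX 1, 2 and 3 of total counts, with VIM the highest in every library; 7 to 10 of the 18 were at 0 in each vehicle library, 6 in DOX 1, 5 in DOX 3 and 0 in DOX 2. CD68, the leukocyte marker that passed the filter and also a lysosomal gene, rose from 7.36, 5.24 and 7.18 CPM to 22.9, 20.5 and 22 CPM (log2 fold change 1.72 ± 0.16 SE, adjusted p = 0.000462, 1.80 without DOX 2), while 6 of 10 leukocyte markers were at 0 in DOX 1 and in DOX 3. Cytoskeleton and motility genes were higher, with 14 of 40 called higher and 2 lower (median 0.32; 8 called without vehicle 2, 7 without vehicle 3, 8 without DOX 1 and 7 without DOX 3), including ITGA3, an integrin that binds laminin (1.47 ± 0.15, 1.46 without DOX 2), the GTPase RHOC (0.81 ± 0.10, 0.92 without DOX 2) and the formin DIAPH1 (0.55 ± 0.10, 0.66 without DOX 2).

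Of 20 tested genes of the NF-κB system (of 28), 6 rose and 2 fell (4 called without vehicle 3 and 3 without DOX 3), and 9 rose and 0 fell without DOX 2. Several of the members that rose are inhibitors or precursors in the pathway, which are known targets of NF-κB themselves. A form of the κB element, GGGA and TTCC with any 2 bases between them, was found on either strand in 445 of 27305 promoter windows (1.63%). It was in 2 of 5 members called higher that have a window and in 3 of 12 tested and not called higher. The stretches before the start of TNFAIP3 and NFKBIA are shown because both were called higher and hold these letters, in capitals and on the reverse strand, upstream of their start.
TNFAIP3: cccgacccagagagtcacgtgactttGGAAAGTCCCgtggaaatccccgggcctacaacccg
NFKBIA: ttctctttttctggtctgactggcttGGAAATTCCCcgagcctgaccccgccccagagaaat
The TNFAIP3 stretch lies at chr6:137867166-137867227 on the plus strand and the NFKBIA stretch at chr14:35404795-35404856 on the minus strand of GRCh38.p14 (RefSeq), each printed in the direction of the gene. TNFAIP3, the ubiquitin-editing inhibitor A20, stood at 8.05, 8.91 and 9.67 CPM with vehicle and 20.9, 19 and 26.6 CPM with DOX (log2 fold change 1.32 ± 0.16 SE, adjusted p = 0.00114, 1.46 without DOX 2). NFKBIA, the inhibitor IκBα, stood at 101, 138 and 136 CPM and 234, 155 and 225 CPM (log2 fold change 0.71 ± 0.18 SE, adjusted p = 0.018, 0.91 without DOX 2), and lost its call without vehicle 1, vehicle 3, DOX 1 or DOX 3 (adjusted p of 0.0536 to 0.0798, within 6.56e-07 to 0.0798). BIRC3, an apoptosis inhibitor of the TNF receptor complex, stood at 9.38, 12.3 and 11.7 CPM and 35.6, 40.3 and 57.6 CPM (log2 fold change 2.0 ± 0.20 SE, adjusted p = 0.000522, 2.10 without DOX 2). NFKB2, the precursor of p52, stood at 22.6, 29.9 and 27.6 CPM and 65.3, 72.6 and 93.1 CPM (log2 fold change 1.53 ± 0.16 SE, adjusted p = 0.000598, 1.61 without DOX 2). For these 4 genes every DOX library was above every vehicle library.

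Interferon-stimulated genes were mixed, with 11 of 41 tested called higher and 4 lower (median 0.28; 8 called without vehicle 2, 6 without vehicle 3 and 8 without DOX 3). The median relative to the vehicle libraries was -0.01 in DOX 1, 0.25 in DOX 2 and 0.57 in DOX 3. RSAD2, which encodes viperin, stood at 0.611, 1.05 and 1.03 CPM with vehicle and 3.52, 6.3 and 9.9 CPM with DOX (log2 fold change 2.88 ± 0.42 SE, adjusted p = 0.00225, 2.95 without DOX 2). ISG15 stood at 9.44, 10.6 and 11.7 CPM and 19.6, 18.7 and 29.3 CPM (log2 fold change 1.10 ± 0.19 SE, adjusted p = 0.00464, 1.25 without DOX 2), and IRF7, an interferon regulatory factor, rose by 1.19 ± 0.19 (1.35 without DOX 2) on the log2 scale. In each, the DOX libraries were above the vehicle libraries. PARP14 fell (log2 fold change -1.05 ± 0.21, -1.15 without DOX 2), and so did IFITM1, a membrane protein that restricts virus entry (-1.68 ± 0.37, -1.81 without DOX 2; adjusted p = 0.0109; 0.0565 without vehicle 3, within 0.00138 to 0.0806). In the antigen presentation list, 5 of 17 rose and 1 fell (3 called without vehicle 2, 3 without vehicle 3 and 2 without DOX 3), with the partners of the peptide transporter on opposite sides. TAP1 rose from 22.3, 24.8 and 21.8 CPM to 34.2, 39.8 and 46.5 CPM (log2 fold change 0.81 ± 0.13 SE, adjusted p = 0.0037, 0.85 without DOX 2). TAP2 fell from 50.8, 56.2 and 54.9 CPM to 30.2, 33.6 and 30.1 CPM (log2 fold change -0.78 ± 0.10 SE, adjusted p = 0.00122, -0.81 without DOX 2).

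CDKN1A, the cyclin-dependent kinase inhibitor p21, stood at 205, 208 and 203 CPM with vehicle and 571, 575 and 791 CPM with DOX (log2 fold change 1.65 ± 0.14 SE, adjusted p = 0.000332, 1.76 without DOX 2). TP53I3, an oxidoreductase, stood at 1.99, 1.77 and 2.95 CPM and 9.49, 6.6 and 9.6 CPM (log2 fold change 1.94 ± 0.26 SE, adjusted p = 0.00165, 2.13 without DOX 2), and TIGAR, which lowers fructose-2,6-bisphosphate, rose by 0.80 ± 0.10 (0.88 without DOX 2) on the log2 scale. TP53INP1, a stress-induced gene, fell from 483, 404 and 391 CPM to 201, 184 and 249.5 CPM (log2 fold change -1.01 ± 0.14 SE, adjusted p = 0.00164, -0.88 without DOX 2). CCNG1, which encodes cyclin G1, also fell (log2 fold change -0.84 ± 0.17, -0.96 without DOX 2).

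Growth factor genes changed at the level of receptors, binding proteins and feedback inhibitors. IGFBP3 stood at 1.28, 2.28 and 2.13 CPM with vehicle and 13.6, 18.8 and 32.3 CPM with DOX (adjusted p = 0.000594). IGF1R, the receptor for insulin-like growth factor I, stood at 89.5, 148 and 139.9 CPM and 379, 197 and 380.0 CPM (log2 fold change 1.34 ± 0.27 SE, adjusted p = 0.00776, 1.62 without DOX 2), with DOX 2 the lowest DOX library for IGF1R. For both genes every DOX library was above every vehicle library. Of 26 genes of the insulin-like growth factor and PI3K axis, 7 rose and 5 fell (6 called without vehicle 2, 6 without vehicle 3 and 6 without DOX 3), the latter including TSC1, a brake on mTORC1 (-0.76 ± 0.10, -0.78 without DOX 2), and RICTOR, the scaffold of mTORC2 (-0.70 ± 0.13, -0.73 without DOX 2). Early-response and MAPK feedback genes numbered 24, of which 9 rose and 3 fell (7 called without vehicle 2, 6 without vehicle 3 and 6 without DOX 3). EGR1, an immediate early factor, stood at 1.09, 1.67 and 1.67 CPM and 5.7, 16.8 and 7.01 CPM (log2 fold change 2.74 ± 0.43 SE, adjusted p = 0.00306, 2.15 without DOX 2). SPRY4, a feedback inhibitor of receptor tyrosine kinases, rose by 3.10 ± 0.59 (3.32 without DOX 2) and the AP-1 component FOSL2 by 1.34 ± 0.22 (1.59 without DOX 2). DUSP4, a nuclear phosphatase of ERK, fell from 46.8, 57.9 and 60.4 CPM to 7.61, 20.01 and 5.8 CPM (log2 fold change -2.32 ± 0.40 SE, adjusted p = 0.00434, -3.01 without DOX 2). Inhibitors of ERK signaling thus stood on both sides, with no overlap of the groups for these 4 genes.

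Of 22 genes of TGF-β and BMP signaling, 4 rose and 4 fell (5 called without vehicle 1, 3 without vehicle 2, 3 without vehicle 3, 4 without DOX 1 and 3 without DOX 3). ID1 and ID2, dominant-negative helix-loop-helix factors induced by BMP, split the DOX libraries. ID1 stood at 0.877, 7.42 and 6.22 CPM with vehicle and 38.9, 5.46 and 61.5 CPM in DOX 1, 2 and 3 (log2 fold change 2.89 ± 0.90 SE, adjusted p = 0.0458, 3.44 without DOX 2). ID2 stood at 4.94, 11.3 and 11 CPM and 48.4, 10.4 and 55.7 CPM (log2 fold change 2.08 ± 0.56 SE, adjusted p = 0.0263, 2.56 without DOX 2), so that DOX 2 was within the vehicle range in both. ID1 and ID2 were called without DOX 2 but lost their call without any other single library (adjusted p of 0.0769 to 0.169 and 0.0655 to 0.0953, within 0.0127 to 0.392 and 1.43e-05 to 0.295 across the alternatives). TGFBR3, the coreceptor betaglycan, fell (log2 fold change -1.15 ± 0.22, -1.41 without DOX 2).

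In the list of stem cell and Notch genes, 6 of 17 tested fell and 2 rose (5 called without vehicle 2, 3 without vehicle 3, 4 without DOX 1 and 4 without DOX 3). NOTCH1 fell from 55.6, 58.8 and 61.3 CPM to 40.2, 39.8 and 41.8 CPM (log2 fold change -0.53 ± 0.09 SE, adjusted p = 0.00408, -0.48 without DOX 2; 0.02 on the log2(TPM + 1) scale), while ALDH1A3, the aldehyde dehydrogenase used as a marker of stem-like prostate cells and a known androgen target, rose from 101, 129 and 124 CPM to 174, 174 and 202 CPM (log2 fold change 0.63 ± 0.12 SE, adjusted p = 0.00585, 0.70 without DOX 2). MYC stood at 375, 623 and 622 CPM with vehicle and 391, 376 and 313 CPM with DOX (log2 fold change -0.59 ± 0.19 SE, adjusted p = 0.0491, -0.59 without DOX 2). Vehicle 1 was within the DOX range, the call was lost without any single library other than vehicle 1 (adjusted p of 0.071 to 0.17, within 0.00516 to 0.993), and on the log2(TPM + 1) scale the difference was 0.00. With all libraries, Wnt genes were close to the background, with 3 of 30 higher and 4 lower (2 called without vehicle 2, 2 without vehicle 3, 4 without DOX 1, 16 without DOX 2 and 2 without DOX 3). Without DOX 2 they were above it, with 7 higher and 9 lower, beside 35.3% of all genes called in that fit. WNT7B, a ligand, rose from 13.3, 10.1 and 9.84 CPM to 41.7, 28 and 43.8 CPM (log2 fold change 1.77 ± 0.20 SE, adjusted p = 0.00081, 1.98 without DOX 2), and the receptor FZD6 fell (log2 fold change -1.17 ± 0.21, -1.42 without DOX 2). TCF7L2, which encodes TCF4, stood at 30.5, 29.5 and 30.7 CPM and 22.3, 24.6 and 21.9 CPM (log2 fold change -0.40 ± 0.10 SE, adjusted p = 0.0217, -0.42 without DOX 2). The call was lost without vehicle 2, vehicle 3, DOX 1 or DOX 3 (adjusted p of 0.0636 to 0.0892, within 0.0149 to 0.668) and the value was 0.13 on the log2(TPM + 1) scale. CTNNB1, which encodes β-catenin, was not called (log2 fold change 0.20 ± 0.11 SE, adjusted p = 0.23) and was called higher without DOX 2 (0.33, adjusted p = 0.0186, within 0.00334 to 0.563).

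Of 28 neuroendocrine genes, 13 passed the filter. Of these, 3 fell and 1 rose, and without DOX 2, 3 fell and 0 rose. PEG10, a retrotransposon-derived gene expressed in neuroendocrine prostate cancer, stood at 7.95, 3.98 and 3.62 CPM with vehicle and 0.819, 1.79 and 0.776 CPM with DOX (log2 fold change -2.22 ± 0.44 SE, adjusted p = 0.00758, -2.67 without DOX 2). SOX11 stood at 10.4, 8.64 and 10.6 CPM and 3.4, 5.36 and 2.98 CPM (log2 fold change -1.34 ± 0.24 SE, adjusted p = 0.0053, -1.60 without DOX 2). EZH2, the Polycomb methyltransferase, stood at 65.1, 75.8 and 69.9 CPM and 45.2, 34.7 and 37.3 CPM (log2 fold change -0.85 ± 0.12 SE, adjusted p = 0.00206, -0.74 without DOX 2). The 3 genes were lower in every DOX library.

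Genes of chromatin and RNA processing were lower. Of 30 chromatin writers and erasers, 13 fell and 0 rose (median -0.28), with median differences of -0.32 in DOX 2 and -0.29 in DOX 1 and DOX 3. TET1, a 5-methylcytosine dioxygenase, stood at 19, 15.2 and 14.7 CPM and 4.88, 5.22 and 3.88 CPM (log2 fold change -1.81 ± 0.18 SE, adjusted p = 0.000522, -1.87 without DOX 2). DNMT3A, a de novo DNA methyltransferase, stood at 18.8, 16.6 and 18.4 CPM and 6.28, 9.53 and 7.53 CPM (log2 fold change -1.21 ± 0.17 SE, adjusted p = 0.00205, -1.34 without DOX 2), and NSD2, a histone H3 lysine methyltransferase, fell (log2 fold change -0.79 ± 0.10, -0.74 without DOX 2). SWI/SNF subunits showed 6 lower and 0 higher of 25, with the PBAF subunit PBRM1 at -0.85 ± 0.14 (-0.93 without DOX 2). In splicing and RNA-binding genes, 19 of 49 fell and 0 rose (median -0.31), and 16 fell without DOX 2 (12 called without vehicle 2 and 11 without vehicle 3). HNRNPC fell from 711, 698 and 708 CPM to 449, 421 and 457 CPM (log2 fold change -0.68 ± 0.09 SE, adjusted p = 0.00149, -0.61 without DOX 2). The splicing kinase gene CLK1 (-1.11 ± 0.15, -1.05 without DOX 2) and SNRPA, which encodes a U1 snRNP protein (-0.72 ± 0.10, -0.69 without DOX 2), fell as well. Nuclear pore and transport genes showed 14 lower and 2 higher of 42 (7 called without vehicle 2, 7 without vehicle 3 and 8 without DOX 3), with the importin IPO5 at -0.95 ± 0.12 (-0.86 without DOX 2) and the exportin XPO5 at -0.79 ± 0.12 (-0.78 without DOX 2). Among 423 tested genes named ZNF with a number, a family rich in KRAB repressors, 96 fell (22.7%) and 4 rose (0.946%; 58 called without vehicle 2, 52 without vehicle 3 and 51 without DOX 3). On the log2(TPM + 1) scale the medians of these 5 lists were -0.21 to -0.09 relative to the median of all genes.

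Clustered histone genes had the lowest median of the lists. Of 50 tested of 74, 38 fell and 0 rose (median -1.25), with median differences of -1.85 in DOX 2 and -1.04 in DOX 1 and DOX 3. HIST1H1B, a linker histone, stood at 177, 158 and 141 CPM with vehicle and 45.3, 25 and 42.1 CPM with DOX (log2 fold change -2.08 ± 0.21 SE, adjusted p = 0.000532, -1.83 without DOX 2). HIST1H3I stood at 16.9, 15.4 and 13.1 CPM and 2.94, 0.943 and 2.44 CPM (log2 fold change -2.83 ± 0.34 SE, adjusted p = 0.00111, -2.47 without DOX 2). These transcripts lack a poly(A) tail, and lists that hold other RNAs of that kind had negative medians as well. In a list of 30 tested RNAs without a tail, which also holds histones, 18 fell and 0 rose, with a median of -1.56 in DOX 2 and -0.89 in DOX 1 and DOX 3. Small nucleolar and Cajal body RNAs had a median of -0.58 over 191 tested, and -0.32 without DOX 2. Of these, 25 fell (13.1%) and 0 rose, a share of decreases below the 14.5% of all genes (9 called without vehicle 2, 14 without vehicle 3, 16 without DOX 1 and 16 without DOX 3). The libraries are labelled as made with a stranded mRNA kit, and the part of tail selection in the histone result was not tested. Clustered histone genes are also near-identical copies, so reads may be shared among them.

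Translation and mitochondria were examined because DOX can act on the mitochondrial ribosome. Of 76 nuclear genes for respiratory chain subunits, 6 rose and 3 fell (median 0.03; 2 called without vehicle 2, 1 without vehicle 3 and 1 without DOX 3), and of 79 genes for the mitochondrial ribosome, 6 rose and 9 fell (median 0.05; 4 called without vehicle 2, 2 without vehicle 3, 9 without DOX 1 and 4 without DOX 3), both smaller shares than over all genes. MRPL42 fell from 298, 285 and 306 CPM to 136, 98.7 and 108 CPM (log2 fold change -1.37 ± 0.13 SE, adjusted p = 0.00046, -1.25 without DOX 2), and MRPS36 rose by 0.67 ± 0.14 (0.74 without DOX 2) on the log2 scale. Of 16 genes for mitochondrial chaperones, proteases and quality control, 4 fell and 2 rose (1 called without vehicle 2, 1 without vehicle 3, 2 without DOX 1 and 1 without DOX 3), and of 29 mitochondrial translation factors, 5 fell and 2 rose (1 called without vehicle 2, 0 without vehicle 3, 4 without DOX 1 and 0 without DOX 3). Genes encoded by mitochondrial DNA were not analysed here. Cytosolic ribosomal protein genes fell in 11 of 79 and rose in 0 (21 called without vehicle 1, 2 without vehicle 2, 0 without vehicle 3, 2 without DOX 1, 28 without DOX 2 and 0 without DOX 3). The median relative to the vehicle mean was -0.39, -0.04 and -0.28 in DOX 1, 2 and 3 and -0.23, 0.13 and 0.10 in vehicle 1, 2 and 3, so that vehicle 1 lay near DOX 3. RPL34 fell from 552, 597 and 641 CPM to 388, 469 and 373 CPM (log2 fold change -0.54 ± 0.12 SE, adjusted p = 0.0105, -0.62 without DOX 2), with the call lost without vehicle 3 or DOX 3 (adjusted p of 0.0509 and 0.0519, within 0.000112 to 0.975) and a value of 0.01 on the log2(TPM + 1) scale. NPM1, the nucleolar chaperone of ribosome assembly, fell from 1109, 1215 and 1257 CPM to 738, 726 and 711 CPM (log2 fold change -0.72 ± 0.10 SE, adjusted p = 0.00167, -0.69 without DOX 2), in a ribosome biogenesis list with 11 lower and 2 higher of 49 (6 called without vehicle 2, 6 without vehicle 3 and 6 without DOX 3).

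Lysosome and autophagy genes were higher. Of 44 tested, 18 rose and 3 fell (median 0.23), with median differences of 0.25 in DOX 2 and 0.23 in DOX 1 and DOX 3 (12 called without vehicle 3). WIPI1, which binds phosphoinositides on forming autophagosomes, stood at 5.56, 9.97 and 9.03 CPM with vehicle and 26.3, 28.4 and 29.1 CPM with DOX (log2 fold change 1.77 ± 0.20 SE, adjusted p = 0.000923, 1.80 without DOX 2). GABARAPL1, an ATG8 family member, stood at 36.5, 52.5 and 44.3 CPM and 82.4, 91.1 and 90.7 CPM (log2 fold change 0.99 ± 0.13 SE, adjusted p = 0.00165, 0.99 without DOX 2). ATP6V0D1, a subunit of the proton pump, rose by 0.99 ± 0.14 (1.14 without DOX 2) on the log2 scale, while MAP1LC3B, the other much used ATG8 marker, fell from 71, 101 and 107 CPM to 46.6, 62.3 and 50.5 CPM (log2 fold change -0.81 ± 0.17 SE, adjusted p = 0.00937, -0.90 without DOX 2). Proteasome subunits rose in 9 of 38 and fell in 2 (6 called without vehicle 2, 4 without vehicle 3, 7 without DOX 1, 25 without DOX 2 and 6 without DOX 3), and the median was 0.02 in DOX 2 and 0.31 in DOX 1 and DOX 3. PSMC4, an ATPase of the 19S particle, rose by 0.50 ± 0.10 (0.61 without DOX 2), and PSMB5, the chymotrypsin-like subunit, fell from 95.1, 103 and 95.8 CPM to 54.5, 37.1 and 61.2 CPM (log2 fold change -0.94 ± 0.17 SE, adjusted p = 0.00479, -0.73 without DOX 2).

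**Figure D5:**
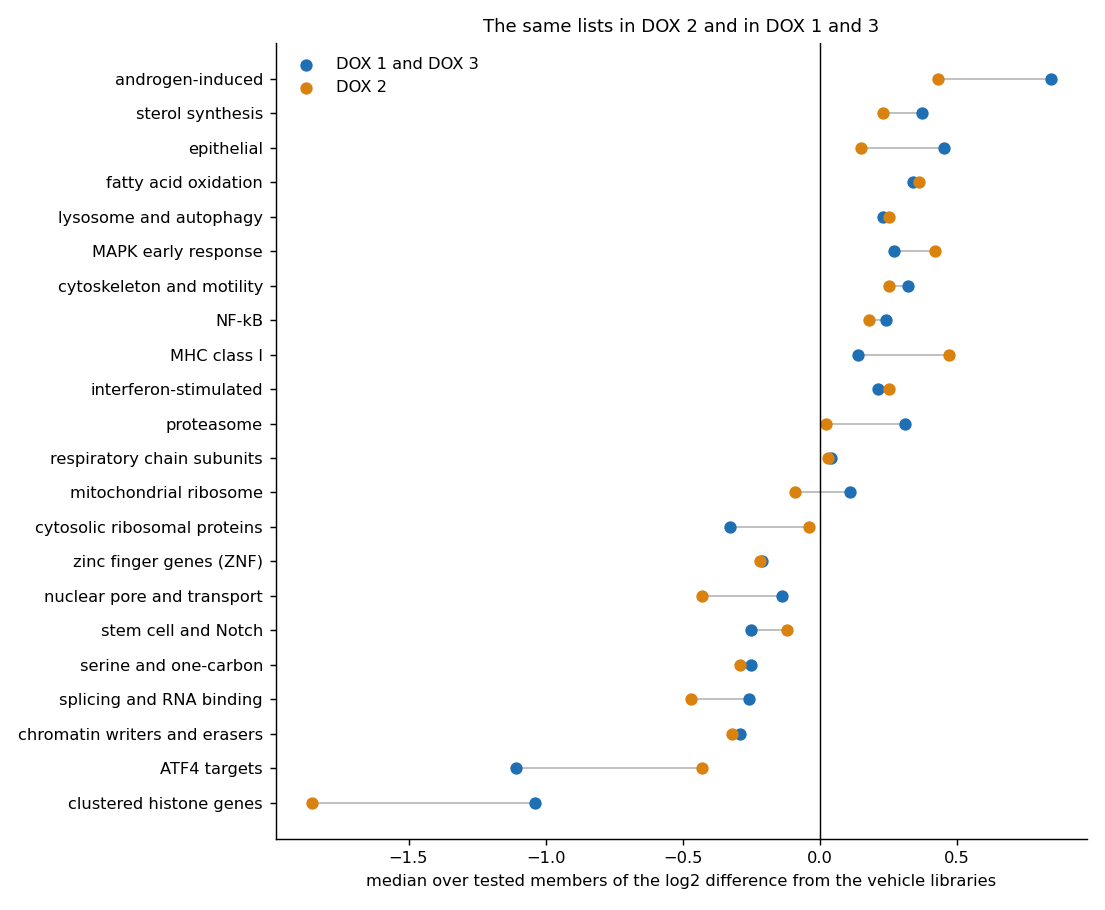
Points give the median over tested members of the log2 difference from the vehicle libraries, for DOX 2 (orange) and for DOX 1 and DOX 3 together (blue), in the lists of the plot of called members. DOX 2 lies nearer 0 for androgen-induced genes (0.43 against 0.84), ATF4 targets (-0.43 against -1.11) and the proteasome (0.02 against 0.31), and farther from 0 for clustered histone genes (-1.85 against -1.04) and splicing genes (-0.47 against -0.26).

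Across these lists, the differences of DOX 2 and of DOX 1 and DOX 3 are taken from the same vehicle libraries, and DOX 2 is 1 library, so the gap between them was not tested.

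Redox, metal and polyamine genes changed in a few members. HMOX1, heme oxygenase, rose from 14.1, 14.9 and 13.3 CPM to 24, 27.1 and 36.5 CPM (log2 fold change 1.05 ± 0.17 SE, adjusted p = 0.00306, 1.14 without DOX 2). In contrast, NFE2L2, which encodes its regulator NRF2, fell from 115, 135 and 133 CPM to 93.1, 84.9 and 79.2 CPM (log2 fold change -0.58 ± 0.10 SE, adjusted p = 0.00501, -0.54 without DOX 2), in a list with 5 higher and 3 lower of 34 (5 called without vehicle 2, 3 without vehicle 3 and 4 without DOX 3). SAT1, which acetylates spermidine and spermine for export, stood at 95.3, 153 and 148 CPM and 445, 481 and 477 CPM (log2 fold change 1.82 ± 0.17 SE, adjusted p = 0.000465, 1.83 without DOX 2). The groups did not overlap for SAT1, in a polyamine list with 2 higher and 1 lower of 19 (9 called without DOX 2). In metal handling, 5 of 17 fell and 2 rose (2 called without vehicle 2, 2 without vehicle 3, 3 without DOX 1 and 2 without DOX 3). MT1G, a metallothionein from a family of near-identical genes, fell (log2 fold change -2.07 ± 0.34, -1.92 without DOX 2). The zinc importer gene SLC39A8 fell from 70.3, 68.7 and 72.1 CPM to 34, 33.4 and 26 CPM (log2 fold change -1.18 ± 0.12 SE, adjusted p = 0.000561, -1.20 without DOX 2).

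Cell surface proteins that are targeted by antibodies in prostate or other cancers were followed as a last list, of which 5 of 20 rose and 2 fell. NECTIN4, an adhesion molecule, stood at 7.44, 8.4 and 9.74 CPM with vehicle and 24.1, 18.4 and 23.2 CPM with DOX (log2 fold change 1.37 ± 0.16 SE, adjusted p = 0.000997, 1.51 without DOX 2). ERBB2, the receptor HER2, rose from 148, 149.8 and 148 CPM to 182, 253 and 221 CPM (log2 fold change 0.56 ± 0.12 SE, adjusted p = 0.0105, 0.47 without DOX 2), and the choline transporter family member SLC44A4 by 0.62 ± 0.12 (0.59 without DOX 2) on the log2 scale. EGFR, the receptor for epidermal growth factor, moved the other way, from 82.7, 95.5 and 96.3 CPM to 61.2, 63.9 and 56.2 CPM (log2 fold change -0.60 ± 0.10 SE, adjusted p = 0.00392, -0.61 without DOX 2). The groups did not overlap for these genes.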

How the data were processed

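RNA from LNCaP-ER/tet-MUC1shRNA cells, 3 vehicle and 3 DOX cultures, was sequenced from stranded mRNA libraries. According to the submitters' processing notes and the labels, the authors aligned reads with STAR to GRCh38 (hg38) and used DESeq2; versions, gene annotation and counting settings are not given in the sources used here. The authors deposited raw read counts per gene for 28008 genes and, for 25545 of them, TPM, which the authors normalized for gene length and library size. Columns of other samples were not used for these comparisons. Replicates were grouped by their labels.

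Counts were tested with edgeR 4.0.16 in R 4.3.3 (TMM factors, filterByExpr, robust quasi-likelihood test, 3 against 3, no covariates) with Benjamini-Hochberg adjustment over all genes tested and an adjusted p threshold of 0.05. The SE of a log2 fold change is its size divided by the square root of the F statistic. CPM is relative to the TMM-scaled library size. Depth was 28045894 to 45807989 counts per library. Named genes were the 12 largest changes in each direction among genes called with and without DOX 2, with a mean level of 5 CPM or more and groups that do not overlap, up to 3 members per list and direction by p, and a list of key genes; ASNS, AARS and NFKBIA were added after their values were seen, and some genes and lists that the rule names are not reported here. The genes, the lists (53 and 3 families by name) and the tests were chosen with earlier results of these data known. The fits were also run on simulated counts that did not model the background of DOX 2, and the outcome is not reported here. Alternatives were DESeq2 1.42.0, other scalings, filters and thresholds, limma 3.58.1 on log2(TPM + 1) and log2(TPM + 0.1), the replicate number as a block, and each library left out; TPM rescaled without 4 noncoding RNAs (RN7SK, RN7SL1, RN7SL2 and RPPH1) and a minimum of 5 CPM in every library were added after the data were seen. Promoter windows (250 bases before to 50 after the start) came from RefSeq, GRCh38.p14.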

Additional observations from a re-analysis of the deposited data

How the results depend on the processing

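Of 139 genes named besides MUC1, 117 stayed on their side of the threshold with each library left out in turn, 22 changed side and 0 changed direction. The number of genes past the threshold ranged from 2002 to 5243 over these fits, with 839 to 2679 higher and 1163 to 2564 lower, against 4006, 1875 and 2131 with all libraries. It was 4498 with DESeq2, 3941 with median-of-ratios factors, 4077 with library size only, 3726 without a filter, 3990 with at least 10 counts in every library, and, as alternatives chosen after seeing the data, 3761 on TPM rescaled without 4 noncoding RNAs and 3667 with at least 5 CPM in every library. Requiring a log2 fold change of 1 or more in size as well left 988 genes, 444 higher and 544 lower. On log2(TPM + 1) limma called 4998 higher and 254 lower, on log2(TPM + 0.1) 5023 and 259, and on log2(TPM + 1) without a filter on low values 1589 in all, 41 of them lower. On these 3 scales, 6 genes reversed, with CREBBP at 0.10, 0.11 and 0.10, MYC at 0.00, NOTCH1 at 0.02, 0.03 and 0.02, RPL34 at 0.01, SREBF2 at 0.21, and TCF7L2 at 0.13, 0.15 and 0.13, where the median of all genes was 0.45, 0.52 and 0.18. None of the 6 was past the threshold there. MUC1 was -0.62 with the replicate block, -1.83 without DOX 2 and -0.09 without vehicle 2, over -1.83 to 0.62 with each library left out, and at 3 to 42 counts a library its change is not resolved.

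Replicate numbers are shared by the groups but did not pair the libraries, since same-numbered deviations correlated at 0.087, -0.003 and -0.074 across genes. A fit with the replicate number as a block called 4226 genes, 1892 higher and 2334 lower.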

Other observations

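Genes of mucin-type glycosylation and galectins, the pathway that decorates MUC1, showed 5 members higher and 3 lower of 20 tested (4 called without vehicle 2, 5 without vehicle 3 and 5 without DOX 3). GALNT2, a transferase that starts O-glycan chains, stood at 71.5, 73.1 and 67.9 CPM with vehicle and 135, 98.5 and 145 CPM with DOX (log2 fold change 0.83 ± 0.14 SE, adjusted p = 0.00392, 1.01 without DOX 2). GCNT1, which branches core 1 into core 2 chains, fell from 171, 156 and 162 CPM to 98.8, 118 and 76.1 CPM (log2 fold change -0.74 ± 0.15 SE, adjusted p = 0.00756, -0.87 without DOX 2). The groups did not overlap for either gene. Of 23 hypoxia genes, 5 rose and 1 fell (3 called without vehicle 3, 10 without DOX 2 and 3 without DOX 3), with a median difference from the vehicle libraries of 0.46 in DOX 2 and 0.07 in DOX 1 and DOX 3. EPAS1, which encodes HIF-2α, stood at 3.43, 3.95 and 3.91 CPM with vehicle and 8, 12.1 and 8.56 CPM with DOX (log2 fold change 1.34 ± 0.21 SE, adjusted p = 0.00308, 1.17 without DOX 2). Genes of the BCL2 family and caspases numbered 24, of which 4 rose and 0 fell (2 called without vehicle 3 and 8 without DOX 2). Without DOX 2, 6 of them rose and 2 fell. Of 17 regulators of the integrated stress response (kinases, phosphatases and initiation factors), 1 rose and 1 fell, the latter being ATF4 (1 called without vehicle 1, 0 without vehicle 2, 0 without vehicle 3, 0 without DOX 1, 6 without DOX 2 and 1 without DOX 3). Without DOX 2, 3 rose and 3 fell. Of 28 long noncoding RNAs, 8 fell and 0 rose (median -0.19; 5 called without vehicle 2, 4 without vehicle 3 and 3 without DOX 3).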
